A study of Macaca mulatta with 16 samples.

Results

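The sites described here are CCCGGG sites of the rhesus monkey genome that were unmethylated in the blood of the youngest animals and that had few other CCCGGG sites around them. They were chosen from the deposited values in 3 steps: an autosomal site had to have 100 or more reads in no fewer than 10 of the 13 libraries of ad libitum (AL) fed monkeys, a mean corrected methylation under 5% in the youngest AL group, and 1 or 2 other listed sites within 500 bp. Of 24288 autosomal sites with this coverage, 6683 met the rule. They made up most of the 11132 sites that were unmethylated by the same limit, the others being 115 sites with 0 neighbours and 4334 sites with 3 or more. Of the 6683 sites, 3268 (48.9%) had 1 neighbour and 3415 (51.1%) had 2. Because the AL-young values chose the sites, every difference from AL-young below is a description, and no support is drawn from it.

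The study measured DNA methylation in whole blood of rhesus monkeys (Macaca mulatta) of different ages and diets, and asked how methylation moves with age and whether caloric restriction (CR) alters this. Each of 16 monkeys gave 1 library. The 4 AL-young monkeys were 0.8 to 0.9 years old (2 female, 2 male), the 5 AL-middle monkeys 10.4 to 12.1 years (1 female, 4 male), the 4 AL-old monkeys 21.9 to 29.8 years (1 female, 3 male) and the 3 CR-old monkeys 23.7 to 25.1 years (all female). AL-old 2 is the only female among the AL-old monkeys, so with 1 animal the parts of sex and diet in a CR-old against AL-old difference cannot be told apart. Age is not balanced in it either: AL-old 7 and 33 were 29.8 and 29.3 years old, and AL-old 2 and 24 were 23.7 and 21.9. Whole blood is a mixture of leukocyte types, so a change within cells and a change in the share of a cell type cannot be told apart either.

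Cytosine methylation at CpG dinucleotides is copied at cell division by maintenance methyltransferases, and most CpGs of a mammalian genome are methylated. CpG-dense stretches, many of them at gene starts, are kept free of methylation in most normal tissues, and partial gain of methylation in such stretches is a well known feature of ageing blood. CCCGGG contains 1 CpG and occurs mainly in GC-rich sequence, so close spacing of such sites marks CpG-dense DNA.

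Methylation was read with digital restriction enzyme analysis of methylation (DREAM). SmaI cuts CCCGGG only where the CpG is unmethylated, XmaI then cuts the remaining sites, and the start of each sequenced fragment shows which enzyme cut. The percent of methylated reads is used here in the corrected form that the authors deposited, in which the odds of methylation were multiplied by 1 constant per library taken from spiked-in standards of known methylation. A pseudocount of 0.5 reads is added before the percent is formed, so a site without a methylated read has a value just above 0.

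A DREAM fragment carries a cut site at each end. Coverage differed with neighbour spacing. Among all 84300 listed autosomal sites with 1 or 2 neighbours, 21.4% had the required coverage, against 0.176% of sites with 0 neighbours and 41.3% of sites with 3 or more. Coverage peaked at 73.2% of listed sites for a nearest neighbour 101 to 150 bp away, and was 3.20% at 1 to 50 bp and 0.341% at 451 to 500 bp. The 6683 unmethylated sites followed the same profile: their nearest neighbour lay 6 to 499 bp away, with a median of 144 bp, and 1919 of them (28.7%) fell in the bin of 101 to 150 bp. Their depth, taken as the median of reads over the AL libraries, ranged from 109 to 6166 with a median of 379, and was highest in that bin (446). All 16 libraries had at least 100 reads at 4515 sites (67.6%).

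**Figure D1:**
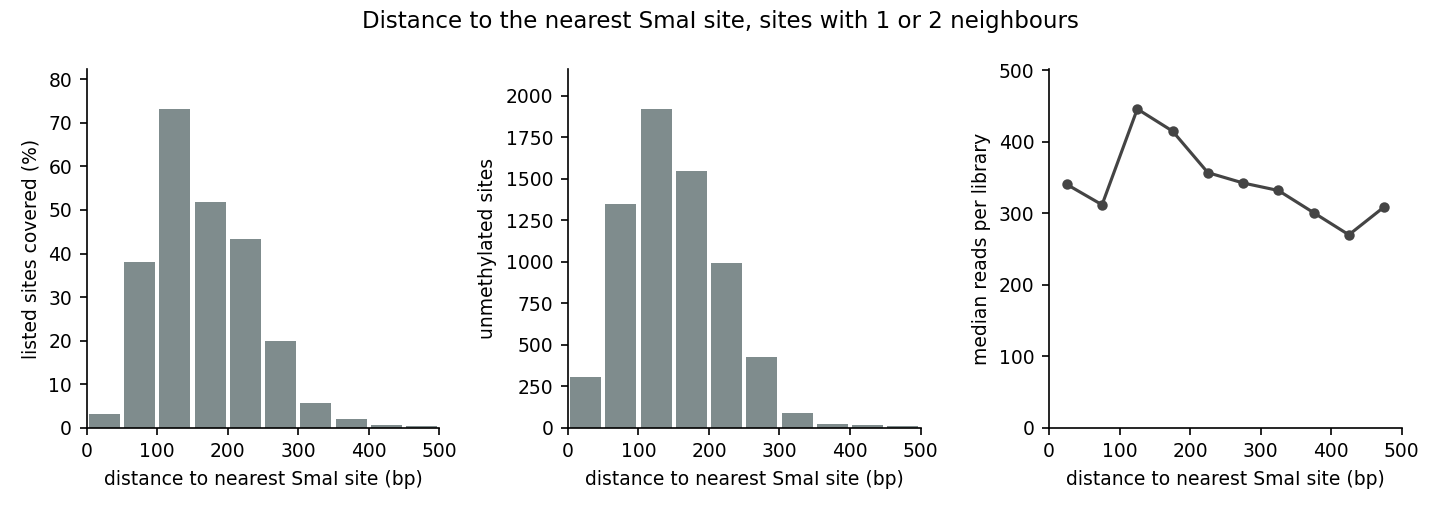
Sites with 1 or 2 neighbours by the distance to the nearest SmaI site (x axis, bp, bins of 50 bp). The left bars give the share of listed sites with the required coverage, the middle bars the number of unmethylated sites, and the line on the right the median of their reads; the share of covered sites peaked at 73.2% and the reads at 446, both at 101 to 150 bp.

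Close spacing went with absence of methylation. Of the covered sites, 24.8% were unmethylated where no neighbour was listed, 37.0% where 1 or 2 were, and 75.4% where there were 3 or more. Neighbour number was part of the rule, and these shares are given as a description.

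In AL-young the mean corrected methylation over the 6683 sites was 0.452% in monkey 49, 0.534% in 52, 0.504% in 54 and 0.427% in 57. In AL-middle it was 1.15% in monkey 17, 1.56% in 40, 1.30% in 42, 1.30% in 43 and 1.09% in 46. In AL-old it was 1.83% in monkey 2, 1.39% in 7, 1.35% in 24 and 2.04% in 33. All AL-middle and AL-old monkeys were above all AL-young monkeys, while the AL-old monkeys 7 and 24 lay within the AL-middle range and monkeys 2 and 33 above it. The CR-old values were 1.62% in monkey 1, 1.20% in 4 and 1.74% in 28. Each of them was under the highest AL-old value and under the AL-old female 2, and monkey 4 was under the lowest. Group means were 0.479% ± 0.0489 (SD, n = 4) in AL-young, 1.28% ± 0.182 (n = 5) in AL-middle, 1.65% ± 0.341 (n = 4) in AL-old and 1.52% ± 0.286 (n = 3) in CR-old.

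The mean of AL-old was 1.17 percentage points above AL-young and 0.370 points above AL-middle, and the latter groups overlapped. CR-old was 0.132 points under AL-old, less than the pooled SD of 0.320, and the groups overlapped. Without CR-old 4 the CR-old mean was 0.0293 points above AL-old, and without AL-old 33 the groups differed by -0.000532 points.

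These differences depended on the correction. Before it, the means were 0.935% in AL-young, 1.99% in AL-middle, 4.19% in AL-old and 2.28% in CR-old, and no AL-old monkey (lowest 3.77%) overlapped with an AL-middle monkey (highest 2.71%) or a CR-old monkey (highest 2.64%). The constants that separate both scales ranged from 0.398 to 0.460 in AL-young, 0.469 to 0.728 in AL-middle, 0.250 to 0.424 in AL-old and 0.494 to 0.772 in CR-old. The partly methylated standard Luc306 divided the libraries into 2 sets: it read 27.3 to 32.0% methylated in AL-middle, 27.6% in CR-old 1 and 30.4% in CR-old 28, but 50.1 to 68.2% in AL-old, 41.4 to 56.0% in AL-young and 42.6% in CR-old 4. Within the set with the lower readings, AL-middle 40 and 17 read 27.3% and 27.6% but had constants of 0.507 and 0.728. AL-middle and the set with the lower readings cannot be told apart. Within the set with the higher readings, CR-old 4 (1.20% corrected, 2.17% uncorrected) was under all 4 AL-old monkeys on both scales.

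**Figure D2:**
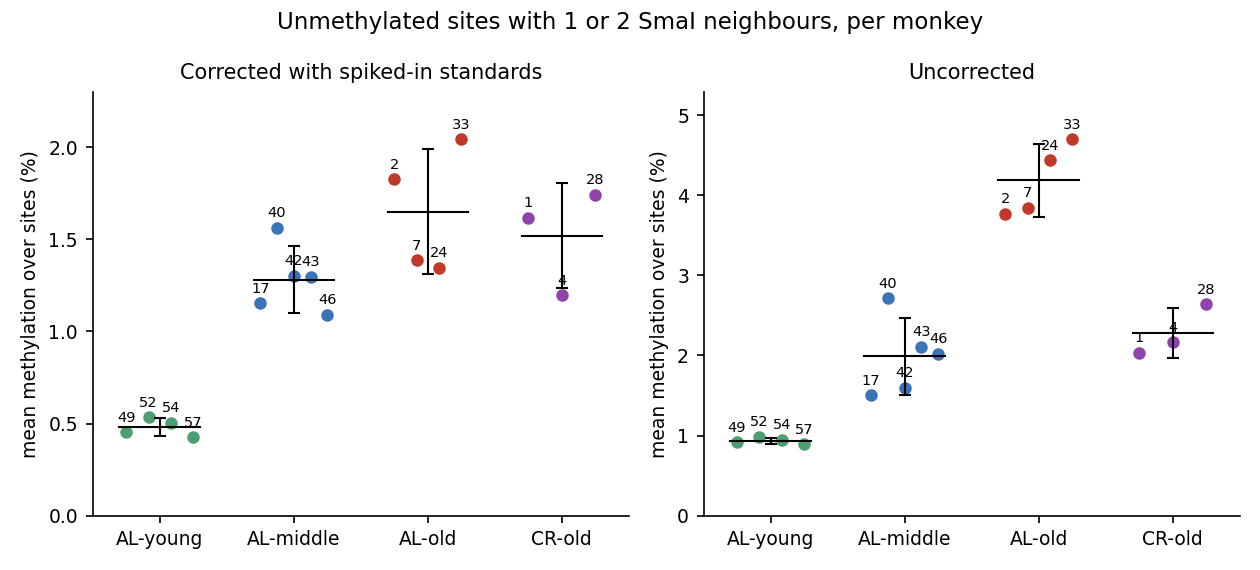
Mean methylation (y axis, percent) over the 6683 sites in each monkey (points, with monkey numbers) by group, with the group mean and SD (lines), on the corrected scale (left) and before correction (right). AL-old (1.35 to 2.04%) overlapped with AL-middle and CR-old on the corrected scale and lay above both (3.77 to 4.70%) before correction.

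Few sites carried most of the change. In AL-young 86.9% of the sites had a group mean under 1%, and this share was 68.6% in AL-middle, 63.6% in AL-old and 64.9% in CR-old. From AL-young to AL-old 4044 sites (60.5%) stayed within 0.5 percentage points, 48 sites were lower by at least 1 point, and the 668 sites with the largest differences (10% of all) held 58.7% of the summed difference with a mean of 6.88 points. A rise of at least 10 points was found at 28 sites in AL-middle, 89 in AL-old and 53 in CR-old. By group mean, 85 sites (1.27%) were at 10% or more in AL-middle, 153 (2.29%) in AL-old and 127 (1.90%) in CR-old, and the highest group mean was 29.6% in AL-middle, 27.3% in AL-old and 37.3% in CR-old.

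The sites with higher values overlapped between groups. Of the 153 sites at 10% or more in AL-old, 52 were also at 10% or more in AL-middle, which is 34% of the AL-old and 61.2% of the AL-middle sites. With CR-old, 71 were shared, 46.4% of the AL-old and 55.9% of the CR-old sites. The order of the 6683 sites by group mean was similar in these groups, with a Spearman correlation across sites of 0.911 between AL-middle and AL-old and 0.922 between AL-old and CR-old. Sites share libraries, base composition and fragments, and are not independent. A site without a methylated read has a value set by the pseudocount and its depth. Such sites made up 38.2% in AL-old 2 and 41.1% in CR-old 4. Part of the shared order can therefore come from depth, and this part was not tested.

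Most sites at 10% or more in a monkey were not at that level in every monkey of its group. Of 5191 sites with at least 100 reads in all 4 AL-old monkeys, 24 were at 10% or more in all 4, 44 in 3, 87 in 2 and 243 in 1. Of those 243, 146 were high in monkey 33, 73 in monkey 2, 21 in monkey 7 and 3 in monkey 24. Over all sites with 100 reads in the monkey, 340 of 6664 were at 10% or more in monkey 33 and 244 of 6668 in monkey 2. These counts were 103 of 6659 in monkey 7 and 64 of 5221 in monkey 24. A cut at 10% also divides sites by counting error and by the general level of a monkey, and these parts were not separated. In AL-middle 11 of 5399 sites were at 10% or more in all 5 monkeys and 73 in 1, in CR-old 41 of 6618 sites in all 3 and 142 in 1, and in AL-young 11 of 6585 sites in 1 monkey and none in more.

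**Figure D3:**
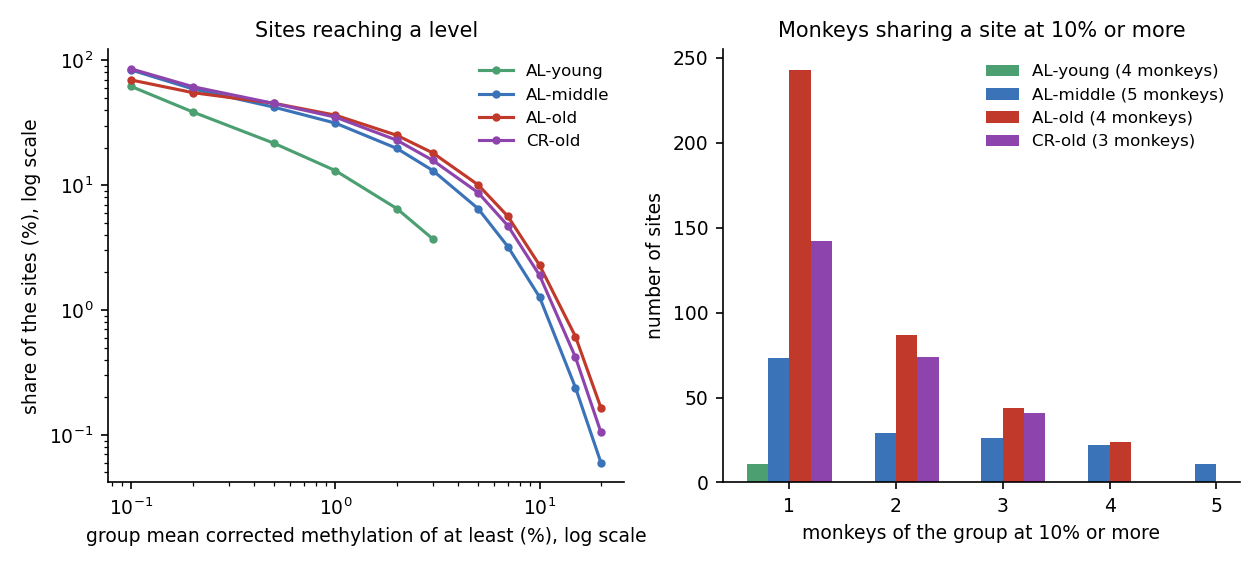
Left, share of the 6683 sites (y axis, percent, log scale) whose group mean reached a corrected methylation (x axis, percent, log scale) in each group; the AL-young line ends under 5% because the sites were chosen there. Right, number of sites (y axis) at 10% or more in 1 to 5 monkeys of a group (x axis), over sites with at least 100 reads in every monkey of the group; in AL-old 243 sites reached 10% in 1 monkey and 24 in all 4.

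Nearly all sites with an AL-old mean of 5% or more had some methylated reads in AL-young. The AL-young values also chose the sites, so this split is a description and nothing is read from it. At 1607 sites (24%) no methylated read was found in AL-young, out of 448 to 6194 reads summed over the monkeys (median 1358). These sites averaged 0.174% in AL-middle, 0.160% in AL-old and 0.177% in CR-old, and 1 of them had an AL-old mean of 5% or more. At the 5076 sites with at least 1 methylated read in AL-young, out of a median of 1627 reads, the means were 1.63%, 2.12% and 1.95%, and 672 had an AL-old mean of 5% or more. CR-old 28 had the highest mean at the 1607 sites, 0.267%, against 0.121 to 0.230% in the other libraries older than AL-young. The AL-young libraries, without a methylated read there, still averaged 0.0632 to 0.0772% through the pseudocount. Its share of a value depends on depth and on the constant. Means of libraries and groups at the 1607 sites are therefore not directly comparable.

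To compare groups at single sites, the methylated and unmethylated reads were tested with a logistic model at the 22549 autosomal sites that had 100 reads in 3 or more libraries of every group, with the constants as offset and p-values adjusted over all of these sites. Of the 6683 sites 6439 could be tested. Each monkey is 1 animal, and a site was called at an adjusted p under 0.05.

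AL-old was called higher than AL-middle at 449 of the 6439 sites (6.97%) and lower at 44 (0.683%). Over all 22549 sites, which include methylated ones, the shares were 3.83% higher and 19.1% lower. The 6439 sites had a median group mean of 0.302% in AL-middle, which leaves little room for a lower call. At the 449 sites the median difference was 1.92 points, from a median group mean of 1.55% in AL-middle to 3.60% in AL-old. At 50 of them the difference was at least 5 points and at 113 it was under 1 point. The 44 lower sites had a median difference of -1.68 points. Leaving out the constants moves every site toward higher values in AL-old, and 1519 sites were then called higher and 2 lower (16.2% and 2.18% of all sites). limma on log2 odds called 261 higher and 168 lower (512 and 4606 of all 22549 sites). A fit of only these 2 groups called 261 higher and 39 lower (558 and 3248 of all 23394 tested). Without AL-middle 17, 182 sites were called higher and 24 lower (381 and 2438 of all 20979 tested). Without AL-old 7 the lower count was 24 (5719 of all 19462 tested). All values of AL-old exceeded all values of AL-middle at 212 of 4564 sites with every value (4.65%, against 2.41% of all sites), and before correction at 832 (18.2%, against 11.8%).

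CR-old was called higher than AL-old at 713 of the 6439 sites (11.1%) and lower at 274 (4.26%), against 35% and 2.47% of all 22549 sites. The levels and sizes of both sets are a description, because the calls were made from these same values. The 6439 sites had a median group mean of 0.318% in AL-old, and a lower call needs room to fall. The 713 higher sites were nearly unmethylated in both groups, with a median group mean of 0.140% in AL-old and 0.390% in CR-old and a median difference of 0.233 points, and at 506 of them the difference was under 1 point. The 274 lower sites had a median group mean of 4.59% in AL-old and 2.22% in CR-old, and a median difference of -2.22 points. With a difference of at least 1 point also required, 207 sites were higher and 221 lower, against 7018 and 474 of all 22549 sites.

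The split between both directions turned with the correction. Leaving out the constants moves every site toward lower values in CR-old, and 18 sites were then called higher and 1304 lower (3.53% and 16.2% of all sites). limma on log2 odds called 98 higher and 25 lower (3607 and 53 of all 22549 sites). A fit of only these 2 groups called 81 higher and 63 lower (4390 and 168 of all 33134 tested). Single libraries also moved the higher count, to 341 without CR-old 28, 1110 without CR-old 1, 345 without AL-old 7 and 474 without AL-old 2. Over all sites tested these counts were 6774, 7671, 7249 and 6097 in that order. The lower count ran from 201 to 364 when single monkeys were left out, and from 419 to 739 over all sites tested. The unmethylated standard La168 read 0.673% methylated in CR-old 28 and 0.134 to 0.460% in the other libraries, and 1.97% of the sites had no methylated read in CR-old 28, against 5.36 to 51.9% in the others. The median reads per site were 3232 in CR-old 28, 3650 in CR-old 1 and 145 to 1270 in the others. The part of the standard's reading in the higher calls was not tested beyond the count without that library. CR-old 4, the only CR-old library of the AL-old library set, had a mean of 1.20%, against 1.35 to 2.04% in AL-old. With 1 animal in a group, no count of called sites is given for it. Every CR-old monkey was under every AL-old monkey at 117 of 5167 sites with all values (2.26%, against 1.25% of all sites) and above at 208 (4.03%, against 24.7%). Before correction the counts were 947 under (18.3%, against 11.7%) and 62 above (1.20%, against 2.57%).

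**Figure D4:**
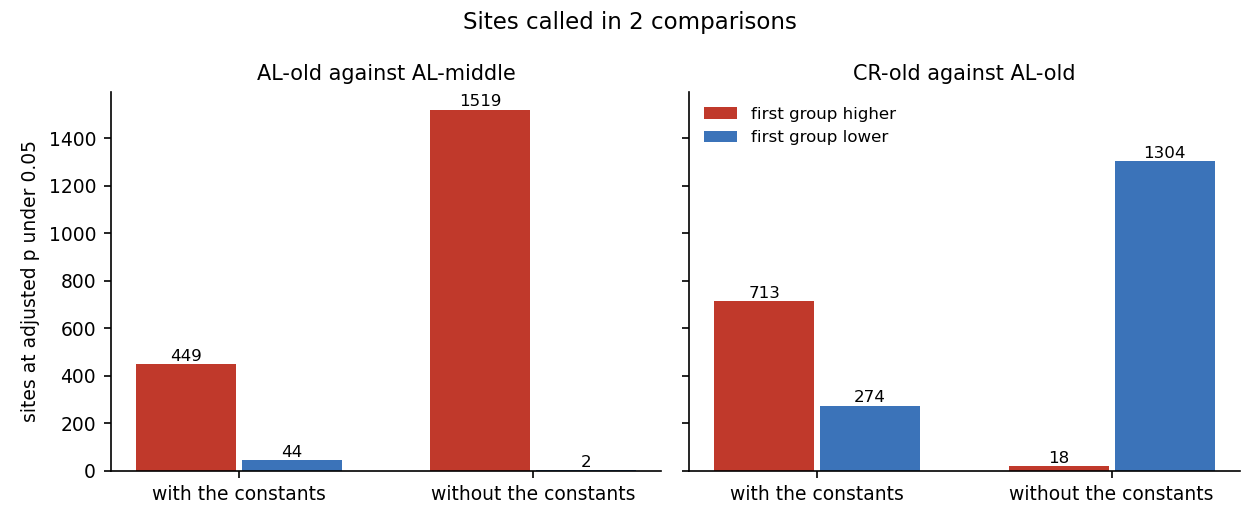
Number of the 6439 sites (y axis) called at an adjusted p under 0.05 in AL-old against AL-middle (left) and CR-old against AL-old (right), with and without the correction constants in the logistic model. Higher and lower refer to the group named first; in CR-old against AL-old 713 sites were higher and 274 lower with the constants, and 18 and 1304 without them.

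The fit of AL-old against AL-young is no test at these sites, since it uses the AL-young values that chose them and that choice leaves little room for a fall. As a description, 2206 of the 6439 sites (34.3%) passed the same threshold as higher and 23 (0.357%) as lower, against 18% and 25.8% of all sites, and nothing is read from these counts.

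The sites with the largest rise from AL-young to AL-old reached means of 25.4 to 27.3% in AL-old. SmaI_rheMac2_290586 (chromosome 16, position 1852852 of rheMac2) had values of 1.16 to 2.73% in AL-young, 9.12 to 14.8% in AL-middle, 36.9%, 13.6%, 21.4% and 37.4% in AL-old monkeys 2, 7, 24 and 33, and 12.0%, 15.3% and 17% in CR-old monkeys 1, 4 and 28. AL-old monkeys 2, 24 and 33 were above every other monkey and monkey 7 was not. SmaI_rheMac2_113432 (chromosome 6, position 2647667) rose from a mean of 2.14% in AL-young to 26.9% ± 9.42 (SD, n = 4) in AL-old, with 15.9% ± 3.43 in AL-middle and 18.1% ± 3.95 in CR-old, and AL-old was called higher than AL-middle (adjusted p = 0.0438) and CR-old lower than AL-old (adjusted p = 0.0283). SmaI_rheMac2_319116 (chromosome 18, position 1784322) varied within every group, from 0.730 to 5.43% in AL-young, 7.90 to 31.0% in AL-middle, 17.3 to 32.7% in AL-old and 16.4 to 42% in CR-old. SmaI_rheMac2_28409 (chromosome 1, position 169620963) had means of 2.81%, 19.1%, 25.4% and 14.8% in AL-young, AL-middle, AL-old and CR-old. The other 3 sites passed in neither comparison, with an adjusted p for AL-old against AL-middle and CR-old against AL-old of 0.0566 and 0.0929 at SmaI_rheMac2_290586, 0.059 and 0.682 at SmaI_rheMac2_319116, and 0.907 and 0.328 at SmaI_rheMac2_28409. At all 4 sites every older monkey was above every AL-young monkey.

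The largest falls from AL-young to AL-old were limited by the rule to 5 points. SmaI_rheMac2_1214 (chromosome 1, position 2774112) went from 4.92% ± 1.61 (n = 4) in AL-young to 1.92% ± 1.74 in AL-middle, 1.01% ± 1.03 in AL-old over 3 monkeys and 0.530% ± 0.601 in CR-old. SmaI_rheMac2_329084 (chromosome 19, position 2396727) went from 4.66% ± 1.21 to 2.13% ± 0.679 in AL-middle and 1.19% ± 0.318 in AL-old, with 4.40%, 0.960% and 2.11% in the CR-old monkeys 1, 4 and 28. Its neighbour 172 bp away had means of 24.3% in AL-young, 17.3% in AL-middle, 9.49% in AL-old and 20.0% in CR-old.

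Among the sites called between AL-old and AL-middle, SmaI_rheMac2_215620 (chromosome 11, position 50762967) had the largest rise. Its values were 4.01%, 6.49%, 1.42%, 3.05% and 2.57% in AL-middle monkeys 17, 40, 42, 43 and 46, and 23.6%, 6.71%, 11.3% and 17.4% in AL-old monkeys 2, 7, 24 and 33. The groups did not overlap, and AL-old was 11.2 points higher (adjusted p = 0.00851). The CR-old values of 4.78%, 3.95% and 5.47% were under every AL-old value and 10.0 points under their mean (adjusted p = 0.0056). Its neighbour SmaI_rheMac2_215619, 169 bp away at position 50762798, had the largest fall in CR-old, from 17.9%, 5.34% and 29.3% in AL-old monkeys 2, 7 and 33 (monkey 24 had under 100 reads) to 4.16%, 3.67% and 4.98% in CR-old (adjusted p = 0.0333).

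Both comparisons use the same 4 AL-old libraries, so a site with high AL-old values can enter both lists. The sites with the next largest called differences are given with both p-values. SmaI_rheMac2_86607 (chromosome 4, position 50550566) had means of 4.87% ± 1.72 in AL-young, 15.8% ± 6.24 in AL-middle, 26.8% ± 9.72 in AL-old and 15.2% ± 1.77 in CR-old (adjusted p = 0.0424 for AL-old against AL-middle and 0.0123 for CR-old against AL-old). The AL-old monkey 33 was highest at 41.3%, and AL-middle 40 at 25.6% lay within the AL-old range. SmaI_rheMac2_290585 (chromosome 16, position 1852692), 160 bp from SmaI_rheMac2_290586, had 1.18% ± 0.436 in AL-young, 9.70% ± 2.41 in AL-middle, 20.7% ± 9.40 in AL-old and 10.2% ± 1.81 in CR-old (adjusted p = 0.0431 and 0.0344).

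**Figure D5:**
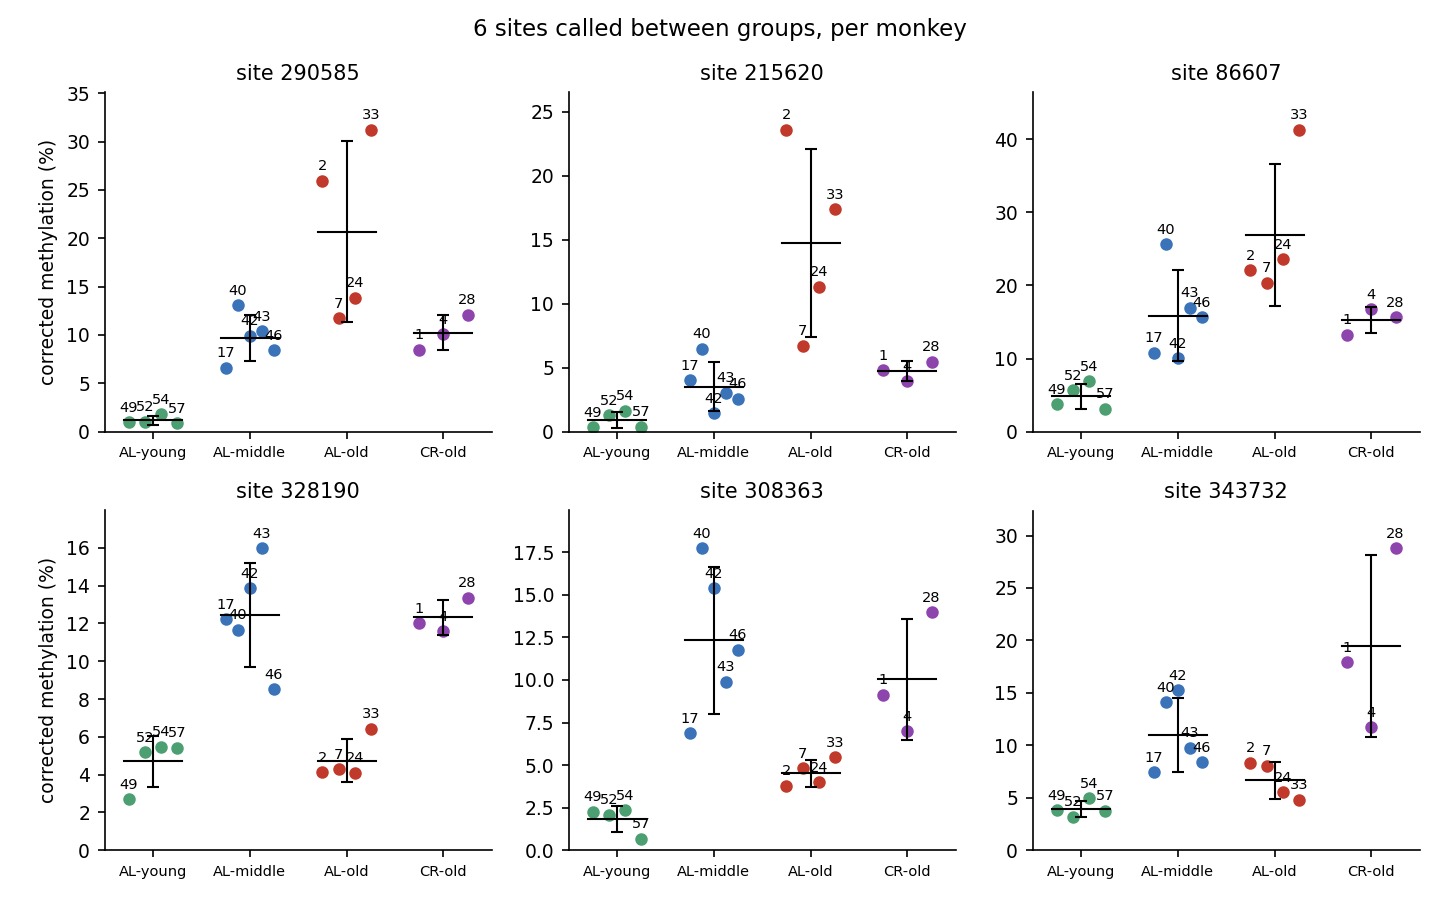
Corrected methylation (y axis, percent) of 6 sites in each monkey (points, with monkey numbers) by group, with the group mean and SD (lines). The upper 3 sites (SmaI_rheMac2_290585, SmaI_rheMac2_215620 and SmaI_rheMac2_86607) were called higher in AL-old than in AL-middle and lower in CR-old than in AL-old, comparisons that share the AL-old libraries; the lower 3 (SmaI_rheMac2_328190, SmaI_rheMac2_308363 and SmaI_rheMac2_343732) were called higher in CR-old than in AL-old with the constants only.

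The 3 sites with the largest called fall from AL-middle to AL-old held this call only with the constants. SmaI_rheMac2_328190 (chromosome 19, position 1167391) had 12.2%, 11.7%, 13.9%, 16.0% and 8.53% in AL-middle monkeys 17, 40, 42, 43 and 46 and 4.14%, 4.28%, 4.09% and 6.42% in AL-old monkeys 2, 7, 24 and 33, while CR-old had 12.0%, 11.6% and 13.4%. AL-old was under both other groups without overlap (adjusted p = 0.000358 against AL-middle and 0.000112 against CR-old), and near AL-young (4.70% ± 1.34). Without the constants the adjusted p was 0.055 and 0.127. SmaI_rheMac2_308363 (chromosome 16, position 76884108) had 12.3% ± 4.32 in AL-middle, 4.51% ± 0.772 in AL-old and 10.0% ± 3.58 in CR-old (adjusted p = 0.0069 and 0.00381), and SmaI_rheMac2_200316 (chromosome 10, position 65272747) had 18.0% ± 4.32 over 3 AL-middle monkeys and 9.52% ± 2.48 in AL-old (adjusted p = 0.0161). Without the constants these were not called (adjusted p = 0.327 and 0.745, and 0.779).

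The 3 largest called rises from AL-old to CR-old also held only with the constants. SmaI_rheMac2_98028 (chromosome 5, position 2139492) had 7.52%, 3.52% and 11% in AL-old monkeys 2, 7 and 33 and 24.9%, 24.2% and 15.6% in CR-old (adjusted p = 0.0115, without the constants 0.139), and its AL-young values ran from 1.21 to 13.2% around a mean of 4.997%, just inside the limit of the rule. SmaI_rheMac2_343732 (chromosome 19, position 56894467) had 6.68% ± 1.76 in AL-old and 19.5% ± 8.65 in CR-old (adjusted p = 0.00107, without the constants 0.258). SmaI_rheMac2_165362 (chromosome 8, position 105134082) had 6.20% ± 1.47 and 17.6% ± 9.83 (adjusted p = 0.00964, without the constants 0.182), and in AL-middle it had 26.2% and 27.2% in monkeys 17 and 42 against 5.21 to 7.28% in the other 3. Its covered neighbour, 170 bp away, was at 50.3% in AL-young.

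The neighbours of the 6683 sites were mostly unmethylated too. The sites had 10098 entries of neighbours in all, of which 7374 had the coverage: 93.8% of these were under 5% in AL-young, 6.08% lay between 5 and 90%, and 11 were over 90%. Of the 6093 distinct neighbouring sites under 5%, 5364 were themselves among the 6683 sites, chosen by the same limit. A pair of such sites is counted from both sides, which raises the share under 5%, so these shares are a description. All covered neighbours were under 5% at 5783 sites, at least 1 was at 5% or more at 429, and none was covered at 471. The 429 sites had 1.81% ± 0.129 in AL-young, 3.34% ± 0.425 in AL-middle, 3.79% ± 0.711 in AL-old and 3.96% ± 0.390 in CR-old. The 5783 sites had 0.383% ± 0.0457, 1.14% ± 0.166, 1.51% ± 0.331 and 1.36% ± 0.284, so sites beside a more methylated neighbour were higher in each group without overlap. The share of sites with an AL-old mean of 10% or more was 6.76% at the former and 1.95% at the latter. The 411 neighbouring sites between 5 and 90%, which the rule left out, had 28.3% ± 0.801 in AL-young, 32.8% ± 1.99 in AL-middle, 26.6% ± 2.13 in AL-old and 35.1% ± 3.44 in CR-old.

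At a few places an unmethylated site lay beside a fully methylated one. SmaI_rheMac2_9792 (chromosome 1, position 29760966) had means of 0.950% in AL-young, 1.10% in AL-middle, 0.635% in AL-old and 0.820% in CR-old, and SmaI_rheMac2_9793, 118 bp away, had 99.3%, 99.3%, 99% and 99%. The lowest of the 16 libraries had 546 reads at the former and 531 at the latter. SmaI_rheMac2_298458 (chromosome 16, position 35081719) had means of 2.85%, 2.12%, 2.63% and 4.44% in the same order, and SmaI_rheMac2_298457, 115 bp away, had 99%, 98.7%, 96.2% and 99%. In all groups these contrasts over 115 and 118 bp remained near their full size.

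The 6683 sites fell into 3878 loci when sites within 500 bp of each other were joined: 1319 loci of a single site, 2325 of 2, 222 of 3 and 12 of 4. Over 3015 pairs of sites within 500 bp, the group means of both sites correlated with a Spearman coefficient across pairs of 0.636 in AL-young, 0.754 in AL-middle, 0.785 in AL-old and 0.755 in CR-old. In AL-old both sites of a pair were at 10% or more in 21 pairs and 1 site in 87. The sites of a pair can be the ends of the same fragment, and the smaller of their depths was in the median 0.901 of the larger. Where neither site has a methylated read, similar depths give similar values from the pseudocount, and its part in the coefficients was not tested. The pair with the largest joint rise was SmaI_rheMac2_290585 and SmaI_rheMac2_290586, described above, whose locus holds another listed site 352 bp from the latter that rose from 0.800% in AL-young to 13.1% in AL-old. The next pair, SmaI_rheMac2_280831 and SmaI_rheMac2_280832 (chromosome 15, positions 36399716 and 36399811), rose from 1.27% and 2.91% in AL-young to 17.5% ± 9.22 and 23.0% ± 9.54 in AL-old. At the former, AL-old 2 had 9.68% and AL-old 33 had 30.9%, and at the latter they had 26.2% and 35%, so even these neighbours 95 bp apart differed within monkey 2.

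Unmethylated sites with other neighbour numbers are set beside these values. The 4334 unmethylated sites with 3 or more neighbours averaged 0.345% ± 0.0350 in AL-young, 1.14% ± 0.166 in AL-middle, 1.48% ± 0.359 in AL-old and 1.32% ± 0.269 in CR-old, and the 115 with 0 neighbours 0.398% ± 0.0560, 1.01% ± 0.176, 1.44% ± 0.346 and 1.08% ± 0.216. The mean over the 6683 sites was above that of the sites with 3 or more neighbours in 16 of 16 libraries, by 0.114 to 0.214 points, including AL-young, where the order enters the choice of sites. Within the 6683, sites with 1 neighbour were above sites with 2 in 16 of 16 libraries, by 0.0429 to 0.141 points. These differences between site classes were smaller than those between AL-young and the older groups, and were not tested.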

How the data were processed

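Whole blood DNA of 16 monkeys was analysed, 1 library each. The authors aligned DREAM reads (per the labels with Bowtie2 and SAMtools, versions not given in the sources used here) to rheMac2. They deposited, for every SmaI site, the counts of methylated and unmethylated reads and their sum, neither normalized nor filtered. The authors also deposited a raw and a corrected percent. The raw percent adds 0.5 to both read counts, and the corrected percent multiplies the odds by 1 constant per library, recovered here from the values. Rows of standards, chromosome X and unplaced sequence were left out of the site analysis. Reads at sites ranged from 8067560 to 126804562 per library. At 100 reads, 3 reads (3%) is the limit that a count of 0 allows. PCR copies carry no molecular identifiers, so this covers counting error only.

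The sites, lists and tests were chosen with earlier results of these data known. Values under 100 reads were left out. Group values are means over monkeys of library means over sites, while counts by group mean use the mean over monkeys at each site. A quasi-binomial logistic model was fitted per site in R 4.3.3 over all 4 groups, with the log constants as offset, dispersion moderated with limma 3.58.1 and kept at 1 or more, deviance F-tests and Benjamini-Hochberg adjustment over 22549 sites. It was tested on simulated data, where most changed sites were not called. A site without a call is therefore not shown to be unchanged. Other values used Python 3.11.15 with numpy 2.4.6 and pandas 2.3.3. Library sets were defined by an uncorrected Luc306 reading under or over 35%. Alternatives were no constants, other coverage limits, limma on log2 odds, 2 groups per fit, no lower limit on dispersion, a difference of 1 point, other site rules and each monkey left out.

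Named sites were, among sites with 100 reads in 3 libraries per group, the 4 largest rises and 2 largest falls from AL-young to AL-old, the 3 largest called differences in each direction of both tests, the 2 sites on either side of the 5% limit, the 2 pairs with the largest joint rise and the 2 sites with the most methylated neighbour. Gene annotation and sequence of rheMac2 were not used here.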

Additional observations from a re-analysis of the deposited data

Results flagged for a closer look

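For the group means over the sites and for each named site, the gap between the highest or lowest monkey and the next was set against the range of its group (Dixon's criterion, groups of 4 or 5 monkeys). Of 75 groups of values, 8 had a monkey set apart. The criterion flags about 1 in 20 independent groups by chance. The named sites were picked from these data and some are neighbours, so that rate does not apply and no excess is read from the count. All 8 were single sites. AL-old 33 was highest at SmaI_rheMac2_86607 (41.29% against 20.4 to 23.6% in the others), SmaI_rheMac2_328190 (6.42% against 4.09 to 4.28%) and SmaI_rheMac2_329084 (1.66% against 0.98 to 1.06%). AL-middle 40 was highest at SmaI_rheMac2_280831 (12.42% against 7.28 to 8.59%). In AL-young, monkey 52 was highest at SmaI_rheMac2_279266 (7.29% against 4.11 to 4.37%), a site just outside the 5% limit, monkey 49 was lowest at SmaI_rheMac2_328190 (2.70% against 5.17 to 5.48%), and monkey 57 was lowest at SmaI_rheMac2_308363 (0.68% against 2.09 to 2.34%) and SmaI_rheMac2_9793 (98.66% against 99.5 to 99.53%). No mean over the 6683 sites had a monkey set apart.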

How the results depend on the processing

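The constants moved most results. Without them AL-old was called higher than AL-middle at 1519 sites and lower at 2, CR-old higher than AL-old at 18 and lower at 1304, and, as a description, AL-old lower than AL-young at 11, and the uncorrected differences were 2.20 points (AL-old minus AL-middle), -1.91 (CR-old minus AL-old) and 3.25 (AL-old minus AL-young). Over all 22549 sites the counts without the constants were 3660, 491, 795, 3655 and 3664 in that order. limma on log2 odds called 261 higher and 168 lower in AL-old against AL-middle (512 and 4606 of all 22549 sites). It called 98 and 25 in CR-old against AL-old (3607 and 53), and 44 lower than AL-young (7085). With only the 2 groups in the fit, 261 were higher in AL-old than in AL-middle (558 of all 23394 tested). Such a fit called 81 higher and 63 lower in CR-old than in AL-old (4390 and 168 of all 33134 tested). A minimum of 200 reads, which left 4197 sites to test, gave 24 lower than AL-middle, 447 higher in CR-old and 14 lower than AL-young. Over all 15665 sites tested these counts were 3321, 5743 and 4305. With a difference of at least 1 point, 207 were higher in CR-old and 14 lower than AL-young (7018 and 5789 of all 22549 sites). CR-old 4 alone, assumed to vary like the other groups, gave 4 higher and 1 lower, and without the constants, an alternative chosen after seeing the data, 1 higher and 0 lower (872 lower at an unadjusted p under 0.05). With each monkey left out in turn, counts ran from 182 to 597 higher and 24 to 44 lower in AL-old against AL-middle, 341 to 1110 higher and 201 to 364 lower in CR-old against AL-old, and 1745 to 2153 higher and 17 to 22 lower in AL-old against AL-young, where the counts are a description only. Over all sites tested, the first comparison ran from 381 to 1133 higher and 2438 to 5719 lower. The second ran from 6058 to 8288 higher and 419 to 739 lower, and the third from 3271 to 3983 higher and 4595 to 6415 lower.

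By the median over sites, AL-old was 0.018 points above AL-middle and 0.1825 above AL-young, and CR-old was above AL-old (0.357% and 0.300%). Pooled reads, other coverage minimums, AL-young limits of 2 or 10%, windows of 200 or 1000 bp and neighbours counted only with 20 reads moved the 3 differences by less than the SD between monkeys, but AL-old minus AL-middle fell from 0.370 to 0.180 points at 20 reads, and CR-old minus AL-old from -0.132 to -0.00382 with the 10% limit. With each monkey left out the differences ran from 0.239 to 0.472 (AL-old minus AL-middle, lowest without AL-old 33), -0.243 to 0.0293 (CR-old minus AL-old) and 1.04 to 1.27 points (AL-old minus AL-young). For named sites on the uncorrected scale, 15 values moved by more than the SD, 6 called sites were no longer called, and 9 moved by less or stayed called. No called site turned in the comparison it was listed for. At SmaI_rheMac2_200316, listed for AL-old against AL-middle, CR-old was also called higher than AL-old by the logistic model (adjusted p = 0.0111). That difference went from 2.22 to -6.73 points. At SmaI_rheMac2_298458 AL-old minus AL-young went from -0.217 to 0.538 points, and at SmaI_rheMac2_319116 CR-old minus AL-old from 4.39 to -10.2. The cause of these changes was not tested. No paired analysis was possible because the monkey numbers do not repeat between groups. At 100 reads a site without a methylated read can hold up to 3% before correction, above most uncorrected values of the sites. Levels under 1% are therefore not firm at single sites. Means over many sites reduce this counting error but keep the pseudocount. They also keep any background such as that of the unmethylated standard La168, which read 0.134 to 0.673% between libraries.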

Other observations

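The share of covered sites that were unmethylated with 1 or 2 neighbours varied between chromosomes, from 20.5% on chromosomes 10 and 20 to 39.4% on chromosome 4. Mean methylation of these sites in AL-old ranged from 1.09% on chromosome 2, over 316 sites, to 2.21% on chromosome 18, over 116 sites, and 2.20% on chromosome 17, over 128 sites. In AL-young the same chromosomes had 0.330%, 0.474% and 0.535%, and in CR-old 1.01%, 1.93% and 1.95%.

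At the limit of the rule, the 110 sites with 4 to 5% in AL-young averaged 4.50% there, 7.94% in AL-middle, 7.53% in AL-old and 9.30% in CR-old, and the 80 sites just outside it, with 5 to 6%, averaged 5.47%, 10.0%, 9.96% and 12.0%. The sites nearest to it were SmaI_rheMac2_98028 and SmaI_rheMac2_166261 (4.997% and 4.995%) on the inside and SmaI_rheMac2_279266 and SmaI_rheMac2_62743 (5.005% and 5.008%) on the outside. SmaI_rheMac2_166261 had 8.73% in AL-middle, 6.83% in AL-old and 12.9% in CR-old, while outside the limit SmaI_rheMac2_279266 had 11.1%, 13.9% and 18.9% and SmaI_rheMac2_62743 had 8.26%, 11.3% and 6.17% in these groups.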
